A study of Mus musculus with 4 samples.

Results

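The 9 genes described here encode the protease pappalysin 1 (Pappa), insulin-like growth factor 1 (Igf1), the receptors Igf1r and Igf2r, and the insulin-like growth factor binding proteins Igfbp2, Igfbp3, Igfbp4, Igfbp5, and Igfbp6. They were found by their symbols among the 31053 genes of each matrix, where each of the 9 symbols occurred once. The list was chosen by measured values, with results of these data known for the same contrasts (levels between classes of sensory neurons and satellite glia, sham against CCI, and Sprr1a+ against Sprr1a- neurons), so neither the presence of changed genes in it nor their direction is independent evidence. The samples were GFP+ cells sorted from bilateral L4-5 dorsal root ganglia (DRGs) of heterozygous Pirt EGFPf mice, on a C57BL/6 background and 7 to 8 weeks old, in which the Pirt promoter, active in most primary sensory neurons, drives EGFPf in place of the Pirt open reading frame. The mice had a bilateral chronic constriction injury (CCI), in which ligatures are tied loosely around each sciatic nerve, or sham surgery 7 days before collection. For each surgery there was 1 library of males and 1 of females, called Male-Sham and Female-Sham, or Male-CCI and Female-CCI. All 4 groups carried the EGFPf allele. Each library pooled 20 DRGs of 5 mice, and because a litter's males and females were given 1 kind of surgery, litter and surgery cannot be told apart.

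Insulin-like growth factors are secreted ligands that act through the tyrosine kinase IGF1R, while IGF2R binds IGF2 and carries it to lysosomes. Binding proteins hold the ligands outside the cell and set how much reaches the receptor, and PAPPA is a metalloprotease that cleaves some of them, IGFBP4 above all, which frees the ligand. In the peripheral nervous system, IGF1 is known for supporting survival and axon growth of sensory neurons, and PAPPA for raising local IGF availability in many tissues.

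The 4 matrices held 195684124 to 237069156 unique molecular identifiers (UMIs), and 15715 cells were kept after filters, of which 15133 were neurons in 28 clusters and 582 formed 1 cluster with satellite glial cell markers (SGC-like cells). The neurons came to 3281, 5398, 2817, and 3637 per library, with Male-Sham and Female-Sham before Male-CCI and Female-CCI, which is the order of every series of 4 values below. Classes carry the names of the study's subtypes with "-like", since they were rebuilt here from marker genes: non-peptidergic (NP) and peptidergic (PEP) nociceptors, large-diameter neurofilament-rich neurons (NF), C-fiber low-threshold mechanoreceptors (cLTMR), and CCI-induced (CCI-ind) neurons. The 9 genes were kept out of the genes used for clustering. SGC-like cells numbered 190, 150, 130, and 112, and all 6 SGC markers were found in them in every library. In neurons those 6 markers summed to 1277, 1593, 854, and 1051 CPM, lower in both CCI libraries. Levels are CPM, the gene's UMIs scaled to the total UMIs of the cells summed, so they are relative to all other transcripts of those cells. Between 215 and 513 barcodes were shared by each pair of libraries, and 17 were found in kept cells of 2 or more libraries. Neurons were called Sprr1a+, the study's sign of an injured neuron, where the log-normalized value of Sprr1a was above 1, which gave 42, 144, 1467, and 1789 neurons.

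The windows of 250 bases before the start of 4 of these genes (RefSeq, GRCm38.p6) are shown first, because Igfbp3 and Igfbp6 were high in Sprr1a+ neurons, Igfbp5 was low in them, and Igf1 was high in Sprr1a+ neurons of a single class. Capitals mark matches to the motifs searched on both strands. The starts are those of RefSeq transcripts and need not be the ends of the GENCODE gene models whose coordinates are given with each gene below. By those coordinates the Igf1 window lies inside the gene, the Igfbp6 window ends before the gene model begins, the Igfbp5 window overlaps the end of the gene model, and the Igfbp3 window adjoins it.

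Igf1, chr10:87860861-87861110, plus strand: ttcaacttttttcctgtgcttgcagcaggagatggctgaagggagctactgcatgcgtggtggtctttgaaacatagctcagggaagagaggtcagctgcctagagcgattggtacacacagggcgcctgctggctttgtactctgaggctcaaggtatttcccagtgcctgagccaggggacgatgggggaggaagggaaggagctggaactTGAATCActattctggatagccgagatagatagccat

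Igfbp3, chr11:7213924-7214173, minus strand: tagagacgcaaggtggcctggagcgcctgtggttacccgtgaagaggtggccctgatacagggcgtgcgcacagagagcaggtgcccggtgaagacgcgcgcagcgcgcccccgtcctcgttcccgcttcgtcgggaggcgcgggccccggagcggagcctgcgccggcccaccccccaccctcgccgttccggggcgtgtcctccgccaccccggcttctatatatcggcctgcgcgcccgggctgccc

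Igfbp5, chr1:72874866-72875115, minus strand: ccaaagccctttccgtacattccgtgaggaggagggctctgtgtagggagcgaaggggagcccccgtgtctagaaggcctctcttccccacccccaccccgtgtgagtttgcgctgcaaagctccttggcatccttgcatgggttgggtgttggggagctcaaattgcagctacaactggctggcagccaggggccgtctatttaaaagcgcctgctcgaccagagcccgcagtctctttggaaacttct

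Igfbp6, chr15:102143936-102144185, plus strand: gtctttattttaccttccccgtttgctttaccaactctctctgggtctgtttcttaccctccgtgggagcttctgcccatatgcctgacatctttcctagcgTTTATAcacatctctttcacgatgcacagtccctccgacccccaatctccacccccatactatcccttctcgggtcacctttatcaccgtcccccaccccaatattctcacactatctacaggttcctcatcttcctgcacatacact

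The motifs were the AP-1 motif TGANTCA, found in 6.75% of the 32851 windows of this length, the TATA box TATAAA, found in 12.37%, and the GC box GGGCGG, found in 32.74%. The Igf1 window held 1 AP-1 match, which starts 37 bases before the RefSeq start, and the Igfbp6 window held 1 TATA box match on the other strand, which begins 148 bases before its RefSeq start. The windows of Igfbp3 and Igfbp5 held none of the 3 motifs. G and C made up 73.2% of the Igfbp3 window, 58.8% of that of Igfbp5, 52.8% of that of Igf1, and 49.6% of that of Igfbp6. The table held a window for 8 of the 9 genes. A window of Igfbp2, a gene low in Sprr1a+ neurons, also held 1 AP-1 match, which starts 39 bases before its RefSeq start (chr1:72825137-72825386, not shown). The windows of Igf1r, Igf2r, and Igfbp4 held no AP-1 match. A match in these letters is a description and does not show that a factor binds there.

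Pappa, on chromosome 4 from 65124174 to 65357509 on the plus strand (GRCm38), was found mostly in a few classes of neurons, and its level was higher in both CCI libraries than in both sham libraries. Over all neurons it was at 5.35, 3.49, 11.7, and 14.0 CPM. In sham the highest level was in NF1-like neurons (38.9 and 24.0 CPM), followed by PEP1-like neurons (7.25 and 8.79 CPM). The next classes, PEP2-, PEP3/4-, and NF2-like neurons, overlapped one another at 1.27 to 4.96 CPM in sham. In NP1-, PEP5-, and cLTMR-like neurons of sham no library held more than 2 Pappa UMIs.

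After CCI, PEP2-like neurons stood at 56.8 and 80.8 CPM, against 4.96 and 3.07 CPM in sham, and overlapped NF1-like neurons (62.9 and 65.9 CPM) and PEP1-like neurons (30.2 and 63.4 CPM). Their CCI mean was 68.8 ± 17.0 CPM (SD, n = 2) and their sham mean 4.02 ± 1.33 CPM (SD, n = 2). The share of neuronal Pappa UMIs that came from PEP2-like neurons was 4.49%, 5.89%, 17.2%, and 21.3%, while that of NF1-like neurons was 57.9%, 37.3%, 32.7%, and 14.6%. Of PEP2-like neurons, 5.70%, 4.95%, 24.8%, and 34.5% held a Pappa UMI as counted. With each cell thinned to 2000 UMIs the shares were 0.877%, 0.206%, 6.02%, and 8.93%, with exact 95% binomial intervals of 2.63% to 11.5% in Male-CCI and 5.08% to 14.3% in Female-CCI, which cover counting error only. SGC-like cells gave 1 Pappa UMI in 582 cells, in Male-Sham.

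**Figure D1:**
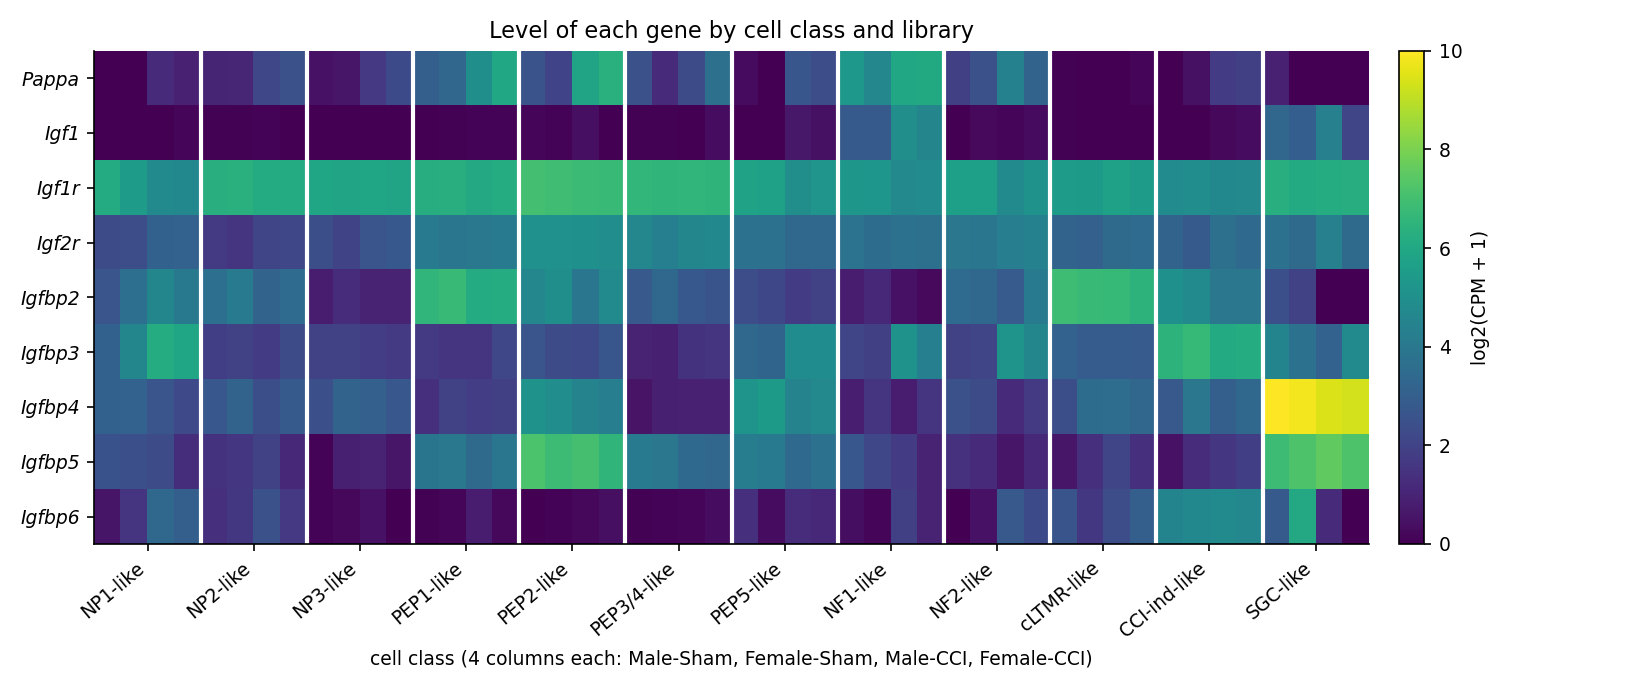
Level of the 9 genes in 11 neuronal classes and in SGC-like cells, as log2(CPM + 1) on the color scale, with 4 columns per class, both sham before both CCI libraries and males before females. Pappa is brightest in NF1-like neurons of sham and in NF1-, PEP1-, and PEP2-like neurons of CCI, and Igfbp4 in SGC-like cells, at 629.8 to 1051 CPM.

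Clusters within a class differed in Pappa. In the PEP2-like cluster led by Col25a1 (cluster 15) it was at 8.07, 5.10, 94.5, and 131 CPM, and in the PEP2-like cluster led by Dcn and Tmc3 (cluster 14) at 2.17, 0.533, 2.94, and 1.32 CPM. The libraries of sham and CCI did not overlap in the first of these clusters and did overlap in the second. Igfbp5 had the reverse pattern between them, at 24.8, 21.7, 16.2, and 20.7 CPM in cluster 15 and at 248, 234, 296, and 208 CPM in cluster 14. Of the NF1-like clusters, the one with the parvalbumin gene Pvalb among its leading genes (cluster 26) was the higher in every library, at 117, 90.2, 167, and 163 CPM, and the one led by Ntng1 (cluster 19) was at 3.05, 3.19, 30.0, and 30.0 CPM. In the PEP1-like cluster 4 Pappa was at 2.04, 3.05, 31.3, and 49.6 CPM, and in cluster 8 at 16.2, 17.5, 27.9, and 87.5 CPM. Differences between clusters were not tested, since the clusters come from these same cells.

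CCI and sham were compared by edgeR's quasi-likelihood test on UMIs summed per library, 2 CCI against 2 sham libraries, with Benjamini-Hochberg adjustment over all genes tested. A gene was called at an adjusted p below 0.05 and an absolute log2 fold change above 0.5. Over all neurons 8 of the 9 genes were called, 4 higher and 4 lower after CCI, where 27.8% of the 17233 genes tested were called, 15.2% higher and 12.7% lower. The median log2 fold change of the 9 genes was 0.13, against -0.0061 for all genes tested. In Sprr1a- neurons, taken by the study as uninjured, 3 of the 9 were called and all 3 were higher, against 4.48% of 16407 genes called, 3.24% higher and 1.24% lower. The median there was 0.25 for the 9 genes and -0.00086 for all genes. Of the 9 genes, 1 was called lower there without neurons that held a Sprr1a UMI, without shared barcodes, and with doublets kept. Among Sprr1a- neurons of CCI, 37 in Male-CCI and 69 in Female-CCI were CCI-ind-like.

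Pappa rose over all neurons by a log2 fold change of 1.60 (SE 0.22, adjusted p = 0.0042, edgeR). In Sprr1a- neurons, at 5.43, 3.60, 17.7, and 23.9 CPM, it rose by 2.19 (SE 0.26, adjusted p = 0.016). Both CCI libraries were above both sham libraries in each of these sets. The call in Sprr1a- neurons was lost without the Female-CCI library (adjusted p = 0.060), with no filter on low counts (0.090), with sex as a replicate block (0.14), and with a limit of 5% mitochondrial UMIs (0.088), at log2 fold changes of 1.95 to 2.19. With only the neurons that held no Sprr1a UMI it was called at 1.45 (adjusted p = 0.040).

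Class by class in Sprr1a- neurons, Pappa could be tested in 7 of 10 classes, had a positive log2 fold change in all 7 (1.21 to 4.17), and was called in 4. In PEP2-like neurons, none of which was Sprr1a+, it rose by 4.17 (SE 0.29, adjusted p = 0.00092), where 4.52% of genes were called, and the call held with DESeq2, no filter, the sex block, and without each library in turn. In NP3-like neurons, a class with only 5, 6, 11, and 15 Pappa UMIs over all its cells, Pappa was at 0.402, 0.502, 2.12, and 3.79 CPM. The log2 fold change there was 2.58 (SE 0.53, adjusted p = 0.0065, edgeR), where 2.56% were called. That call was lost without the Male-Sham (adjusted p = 0.17), the Female-Sham (0.16), or the Female-CCI library (0.081). In NF2-like neurons it was 1.99 (SE 0.36, adjusted p = 0.022), where 1.72% were called, and in NP2-like neurons, at 1.02, 1.09, 3.38, and 4.57 CPM, it was 1.88 (SE 0.26, adjusted p = 0.00013), where 4.47% were called. Both of these calls held without each library in turn. DESeq2 called Pappa in NP2-like neurons and gave no adjusted p for it in NP3- and NF2-like neurons. In PEP1-like neurons the difference of 2.53 was not called (SE 0.57, adjusted p = 0.15), and the 2 CCI libraries differed from each other by more than the sham libraries did, at 29.7 and 63.2 CPM. DESeq2 called it there (adjusted p = 0.00015). NF1-like neurons had 38.9, 24.0, 74.6, and 67.7 CPM and a log2 fold change of 1.21 that was not called (SE 0.25, adjusted p = 0.12), while DESeq2 called it (adjusted p = 8.6e-07). In PEP3/4-like neurons the log2 fold change was 1.53 (SE 1.07, adjusted p = 0.51). Differences of the CCI effect between classes were not tested.

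**Figure D2:**
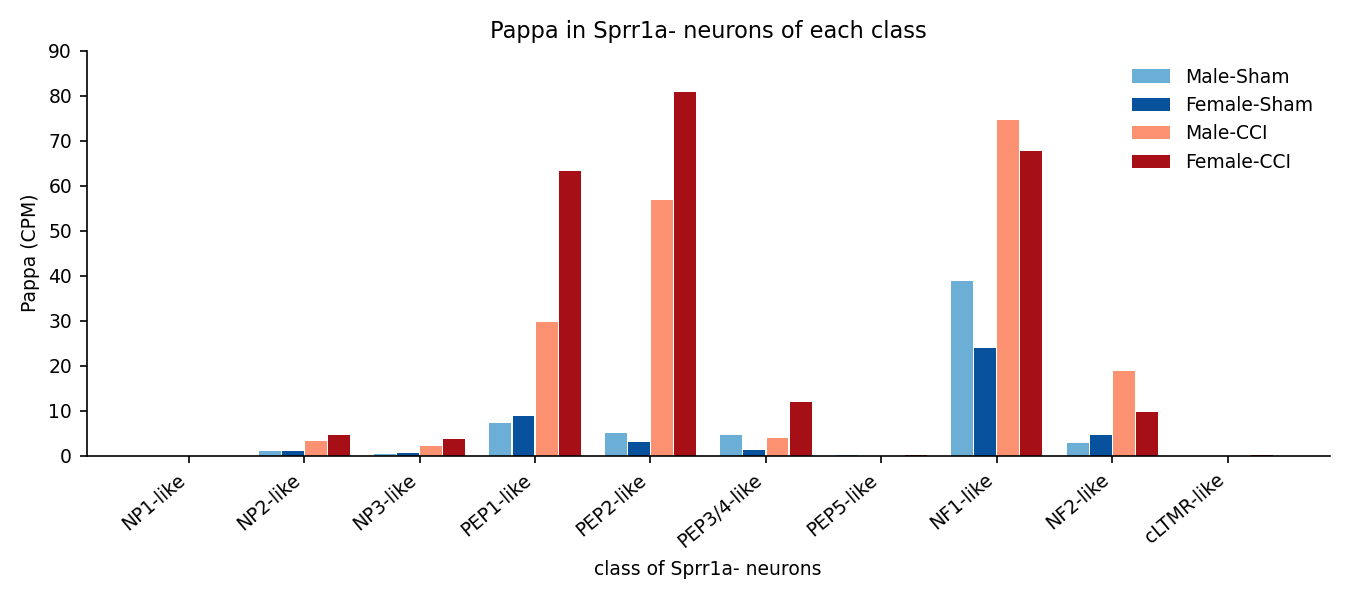
Pappa in CPM (y axis) in Sprr1a- neurons of 10 classes (x axis), with 1 bar per library. Bars of both CCI libraries stand above both sham libraries in NP2-, NP3-, PEP1-, PEP2-, NF1-, and NF2-like neurons, most in PEP2-like neurons, at 56.8 and 80.8 CPM against 4.96 and 3.07 CPM.

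Pappa was lower in Sprr1a+ than in Sprr1a- neurons of the same library. Its level in Sprr1a+ neurons was 0, 0.332, 6.58, and 4.29 CPM, and in the CCI libraries Sprr1a- neurons were 2.69 and 5.57 times as high. This depended on where the line between the sets was drawn. Of Sprr1a- neurons in CCI, most held at least 1 Sprr1a UMI, namely 881 of 1350 in Male-CCI and 1123 of 1848 in Female-CCI, and 83 and 203 neurons had a value in the 0.5 below the limit, against 25 and 57 in the 0.5 above it. When neurons with any Sprr1a UMI were set against those with none, the mean log2 ratio of Pappa in CCI was 0.010. Within classes the order was not shared: in NF1-like neurons of CCI Pappa was at 49.0 and 62.3 CPM in Sprr1a+ and 74.6 and 67.7 CPM in Sprr1a- neurons, and in PEP5-like neurons 65 and 45 UMIs (9.05 and 7.36 CPM) came from Sprr1a+ neurons and 0 and 1 from Sprr1a- neurons.

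Igf1, the ligand, on chromosome 10 from 87858265 to 87937042 on the plus strand, was found in neurons mostly in the NF1-like class. An antisense gene, Igf1os, overlaps it on the other strand. Over all neurons Igf1 was at 0.561, 0.438, 2.00, and 0.938 CPM, and NF1-like neurons held 87.9%, 75.9%, 89.0%, and 74.7% of these UMIs. Their level was 6.18, 6.11, 29.3, and 22.5 CPM, while no other named class of neurons exceeded 0.574 CPM in any library. The unnamed cluster led by Calb1, whose values are given at the end, was above NF1-like neurons in Female-Sham. Within NF1-like neurons of CCI, Sprr1a+ neurons were at 50.4 and 45.8 CPM and Sprr1a- neurons at 11.7 and 10.4 CPM, a ratio of 4.30 and 4.42. The Ntng1 cluster (cluster 19) was at 6.77, 6.88, 37.9, and 26.7 CPM, and the Pvalb cluster (cluster 26) at 4.91, 3.66, 2.11, and 11.1 CPM. Sham and CCI thus did not overlap in the Ntng1 cluster and overlapped in the Pvalb cluster.

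Over all neurons Igf1 rose by 1.62 on the log2 scale (SE 0.40, adjusted p = 0.019, edgeR), a call lost without the Male-Sham library (adjusted p = 0.082), without the Female-Sham library (0.15), and with no filter on low counts (0.057). Without the Male-CCI library the log2 fold change was 0.96 (adjusted p = 0.022). In Sprr1a- neurons the difference was 0.70 (SE 0.29, adjusted p = 0.14) and was not called. In Sprr1a- NF1-like neurons, the single class where Igf1 could be tested, it rose by 0.90 (SE 0.20, adjusted p = 0.047), where 1.12% of genes were called. That call was lost without the Female-Sham (adjusted p = 0.072), the Male-CCI (0.27), or the Female-CCI library (0.14), and DESeq2 gave no adjusted p. SGC-like cells gave 10, 5, 15, and 2 Igf1 UMIs, of which 6, 4, 6, and 1 came from the 6, 2, 9, and 4 cells that also held at least 3 immune markers. The immune markers summed to 506, 229, 1804, and 645 CPM in SGC-like cells, with Cd68 at 0 in Female-Sham and Ptprc at 0 in Female-CCI, and without those cells Igf1 was at 3.69, 1.43, 12.7, and 1.80 CPM. With all cells kept, the few UMIs of SGC-like cells put them above NF1-like neurons in CPM in both sham libraries.

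Igf1r, the receptor tyrosine kinase for IGF1, on chromosome 7 from 67952827 to 68233668 on the plus strand, was present in every class and was lower in Sprr1a+ neurons of every library. Over all neurons it was at 70.6, 70.7, 43.1, and 45.5 CPM. Sprr1a- neurons were at 71.3, 72.1, 68.1, and 67.7 CPM and Sprr1a+ neurons at 24.2, 26.6, 21.9, and 23.6 CPM, so that the ratio of Sprr1a- to Sprr1a+ was 2.95, 2.71, 3.10, and 2.87. The 4 libraries of one set were apart from those of the other, and sham and CCI neurons of the same set were close. In CCI, Sprr1a+ neurons were also the lower in NF1-, NF2-, NP1-, and PEP5-like neurons of both sexes, by 1.51 to 3.48 times. PEP2-like neurons were the highest class (128, 122, 113, and 109.6 CPM), PEP3/4-like neurons the next (96.3, 92.2, 94.4, and 89.7 CPM), and the libraries of these 2 classes did not overlap. CCI-ind-like neurons stood at 24.7 to 29.0 CPM and SGC-like cells at 69.0 to 78.5 CPM.

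Over all neurons Igf1r fell by 0.62 on the log2 scale (SE 0.04, adjusted p = 5.0e-05, edgeR). In Sprr1a- neurons the difference was -0.10 (SE 0.04, adjusted p = 0.13), and in SGC-like cells -0.08 (SE 0.21, adjusted p = 0.91). Neither was called, nor was Igf1r in any of the 10 classes of Sprr1a- neurons, where the log2 fold change lay between -0.44 and 0.09. The set of all neurons held 42 of 3281, 144 of 5398, 1467 of 2817, and 1789 of 3637 Sprr1a+ neurons in the 4 libraries.

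Igf2r, the receptor for IGF2 and for mannose 6-phosphate, on chromosome 17 from 12682406 to 12769664 on the minus strand, was not called in any set. The noncoding gene Airn overlaps it on the other strand. It was at 12.3, 11.7, 12.8, and 12.5 CPM over all neurons (log2 fold change 0.13, SE 0.06, adjusted p = 0.099, edgeR). In Sprr1a- neurons, at 12.3, 11.9, 14.3, and 14.9 CPM, the difference of 0.25 (SE 0.06, adjusted p = 0.036) stayed below the fold limit. PEP2-like neurons were the highest class in every library, at 32.2, 32.3, 31.2, and 29.0 CPM, and NP2-like neurons the lowest, at 2.27, 1.91, 3.30, and 3.36 CPM. Over all neurons Igf2r was higher in Sprr1a- than in Sprr1a+ neurons of every library, by 1.23 to 2.05 times. Within classes of CCI this order was seen in both libraries of NF1- and PEP5-like neurons only. In NF2-like neurons Igf2r was at 18.8 and 21.8 CPM in Sprr1a+ and 18.3 and 18.5 CPM in Sprr1a- neurons. In NP1- and CCI-ind-like neurons the order differed between Male-CCI and Female-CCI.

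**Figure D3:**
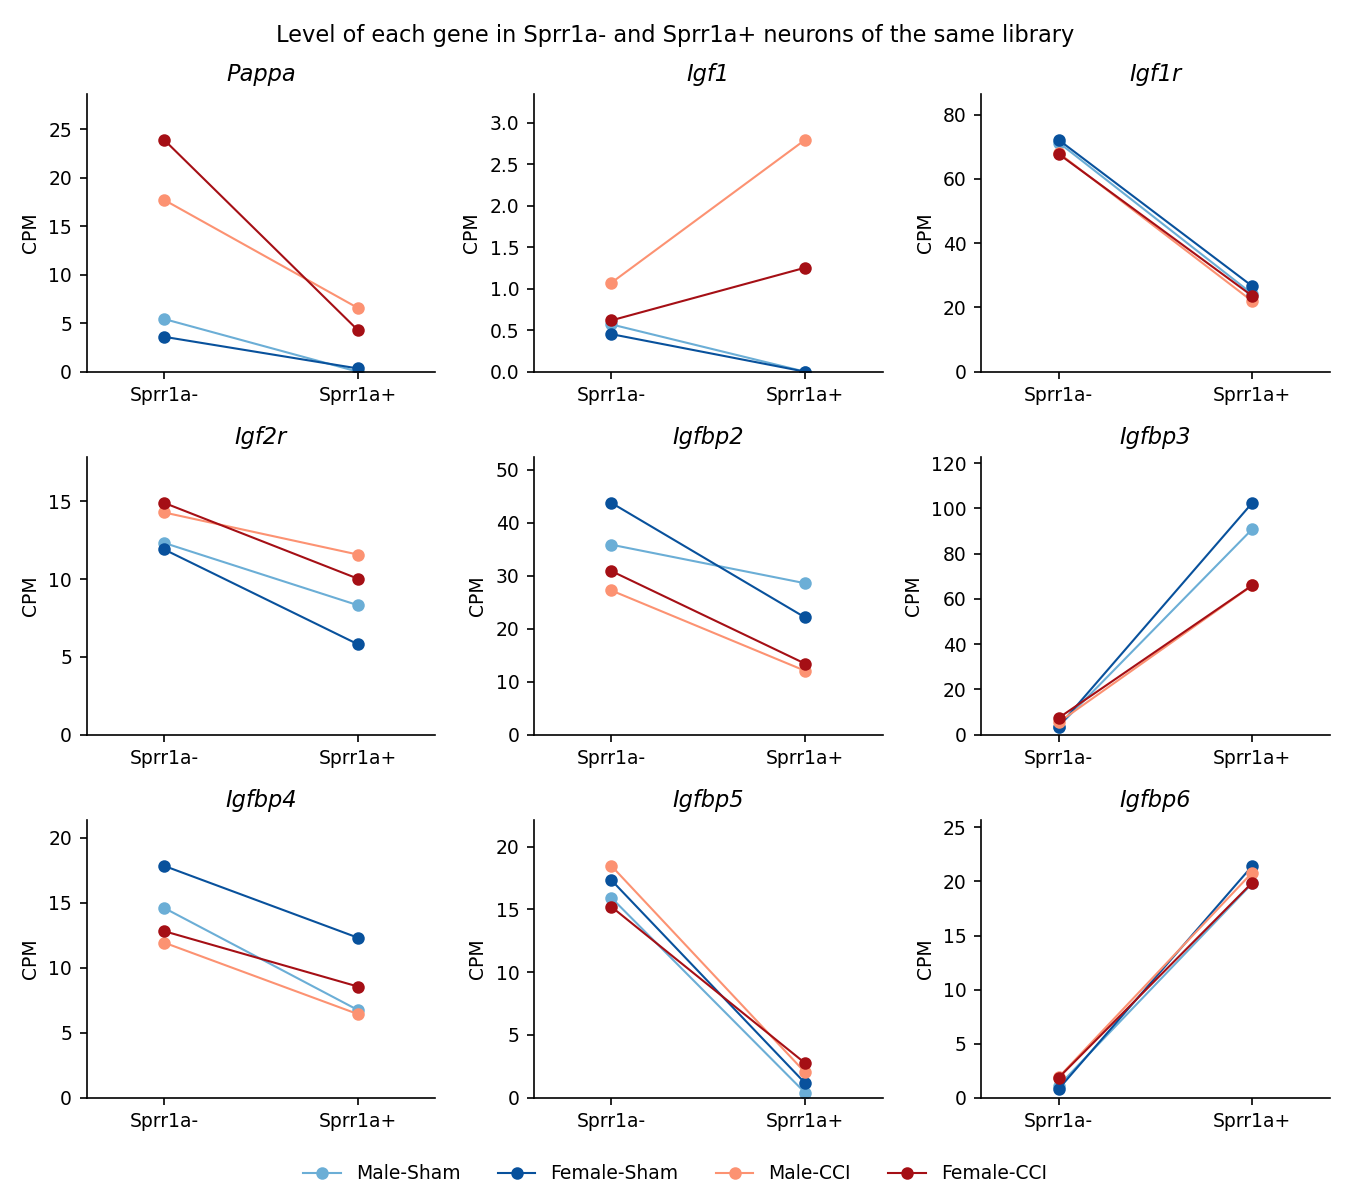
CPM (y axis, from 0) of each gene in Sprr1a- and Sprr1a+ neurons, with a line joining both values of 1 library. Lines rise to Sprr1a+ neurons in all 4 libraries for Igfbp3 and Igfbp6, and fall in all 4 for Pappa, Igf1r, Igf2r, Igfbp2, Igfbp4, and Igfbp5. The sets were split on measured Sprr1a, so no test was made.

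The binding proteins fell into those high in Sprr1a+ neurons (Igfbp3 and Igfbp6) and those low in them (Igfbp2, Igfbp4, and Igfbp5) over all neurons. For the latter the order was not shared by every class. Igfbp4 was 1.76 and 1.18 times as high in Sprr1a+ as in Sprr1a- CCI-ind-like neurons of CCI, and Igfbp2 was 3.15 times as high in Sprr1a+ NP1-like neurons of Female-CCI. Igfbp3, the main carrier of IGFs in serum, on chromosome 11 from 7206086 to 7213923 on the minus strand, was at 90.8, 102, 65.9, and 66.0 CPM in Sprr1a+ neurons and at 3.59, 3.58, 5.45, and 7.38 CPM in Sprr1a- neurons. The ratios were 25.3, 28.6, 12.1, and 8.94. The few Sprr1a+ neurons of sham, 37 of 42 and 126 of 144 of which were CCI-ind-like, had the higher level of Igfbp3. Thinned to 2000 UMIs, 11.9%, 16.7%, 13.0%, and 11.3% of Sprr1a+ neurons held an Igfbp3 UMI, against 0.525%, 0.780%, 1.04%, and 1.30% of Sprr1a- neurons, and 3.68%, 2.67%, 1.54%, and 7.14% of SGC-like cells. Without thinning the shares in Sprr1a+ neurons were 90.5%, 81.3%, 77.2%, and 67.4%.

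The same order was seen in CCI within all 5 classes that had both sets, and its size differed. NF1-like neurons had 68.1 and 43.5 CPM of Igfbp3 in Sprr1a+ and 3.72 and 5.80 CPM in Sprr1a- neurons. In NF2-like neurons the values were 48.8 and 36.3 against 4.08 and 8.29 CPM, in NP1-like neurons 84.1 and 65.8 against 20.9 and 27.9 CPM, and in PEP5-like neurons 42.7 and 42.3 against 7.37 and 11.1 CPM. In CCI-ind-like neurons, where 37 and 69 were Sprr1a-, both sets were high, at 68.7 and 71.7 CPM in Sprr1a+ and 65.0 and 66.2 CPM in Sprr1a- neurons, ratios of 1.06 and 1.08. Sprr1a+ neurons held 93.4% and 90.1% of the neuronal Igfbp3 UMIs in CCI. Among clusters, the CCI-ind-like cluster led by Crh (cluster 17) was the highest, with 143, 164, 129, and 129 CPM (the first from 9 cells), and cluster 18, of the same class, had 35.1 and 40.5 CPM.

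Igfbp3 rose by 2.74 over all neurons (4.94, 6.71, 38.2, and 36.9 CPM; SE 0.15, adjusted p = 0.00011, edgeR) and by 0.82 in Sprr1a- neurons (SE 0.15, adjusted p = 0.016). In the latter the call was lost without the Male-Sham library (adjusted p = 0.072), without the Female-Sham library (0.071), without cells of shared barcodes (0.13), and when Sprr1a- neurons with a Sprr1a UMI were left out, where the log2 fold change was 0.31 (adjusted p = 0.34). It was called in none of the 10 classes of Sprr1a- neurons by edgeR, and CCI-ind-like neurons are not among those classes. Of the Igfbp3 UMIs of all Sprr1a- neurons, 144 of 407 in Male-CCI and 198 of 585 in Female-CCI came from CCI-ind-like neurons. In SGC-like cells Igfbp3 was at 22.0, 12.7, 7.84, and 26.2 CPM, from only 34 UMIs in sham and 22 in CCI. The difference there was -0.20 (SE 0.51, adjusted p = 0.91, edgeR). The CCI effect in SGC-like cells minus that in neurons was -3.11 (adjusted p = 1.7e-10, interaction term in edgeR), a call lost without the Male-Sham library (-2.34).

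Igfbp6, a binding protein with a preference for IGF2, on chromosome 15 from 102144362 to 102149511 on the plus strand, was at 19.8, 21.4, 20.8, and 19.9 CPM in Sprr1a+ neurons. In Sprr1a- neurons it was at 1.10, 0.801, 1.89, and 1.84 CPM, which gives ratios of 18.0, 26.8, 11.03, and 10.8. The Sprr1a+ neurons of sham and of CCI overlapped. CCI-ind-like neurons had the highest level of any neuronal class (21.6, 24.2, 26.5, and 23.8 CPM), followed by cLTMR-like neurons (5.05, 2.06, 4.19, and 7.26 CPM) and NP1-like neurons (0.474, 1.95, 9.03, and 7.21 CPM), of which the former were higher in sham and the latter in Male-CCI. Within the CCI-ind-like class, cluster 0 had 34.7 and 34.0 CPM in CCI and the Crh cluster 17.9 and 14.3 CPM, the reverse of their order for Igfbp3.

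Igfbp6 rose by 3.07 over all neurons (1.39, 1.46, 12.1, and 10.9 CPM; SE 0.09, adjusted p = 3.9e-06, edgeR), the largest difference among the 9 genes there. Of the Igfbp6 UMIs of Sprr1a- neurons, 41 of 141 in Male-CCI and 30 of 146 in Female-CCI came from CCI-ind-like neurons. In Sprr1a- neurons Igfbp6 rose by 0.95 (SE 0.18, adjusted p = 0.018, edgeR). That call was lost in 8 of 14 alternatives, with adjusted p from 0.066 to 0.13, among them each of the sets without the Female-Sham, the Male-CCI, or the Female-CCI library, and with doublets kept the log2 fold change was 0.42 (adjusted p = 0.081).

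Igfbp5, a binding protein that also attaches to the extracellular matrix, on chromosome 1 from 72857932 to 72874884 on the minus strand, was high in SGC-like cells (114, 146, 187, and 148 CPM) and in PEP2-like neurons (143, 116, 132, and 92.9 CPM), which overlapped each other. All other named classes of neurons were at or below 17.4 CPM. PEP2-like neurons held 44.0%, 46.2%, 48.8%, and 38.4% of the neuronal Igfbp5 UMIs. Sprr1a+ neurons were at 0.397, 1.16, 2.02, and 2.75 CPM and Sprr1a- neurons at 15.9, 17.3, 18.5, and 15.2 CPM, a ratio of 9.14 and 5.52 in the CCI libraries. None of the PEP2-like neurons was Sprr1a+. In PEP5-like neurons of CCI, Sprr1a- neurons were at 17.5 and 19.8 CPM and Sprr1a+ neurons at 4.04 and 6.38 CPM. In CCI-ind-like neurons of CCI the values were 0.451 and 2.68 CPM against 2.06 and 2.66 CPM.

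Over all neurons Igfbp5 fell by 0.76 (15.7, 16.8, 9.57, and 8.93 CPM; SE 0.07, adjusted p = 0.00020, edgeR). In Sprr1a- neurons the difference was -0.01 (SE 0.10, adjusted p = 0.98). Without Sprr1a- neurons that held a Sprr1a UMI it was 0.50 and past both limits (adjusted p = 0.0067). In Sprr1a- PEP3/4-like neurons Igfbp5 fell by 0.74 (SE 0.13, adjusted p = 0.00097), where 3.74% of genes were called, and in the other 7 classes tested it was not called. In SGC-like cells, with 2.45% of 7643 genes called (1.19% higher and 1.26% lower), the difference was 0.33 (SE 0.18, adjusted p = 0.42). The CCI effect on Igfbp5 in SGC-like cells minus that in neurons was 1.01 on the log2 scale (adjusted p = 3.0e-05, interaction term in edgeR), where 3.04% of 16657 genes were called, 0.732% higher and 2.31% lower.

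Igfbp4, the main substrate of PAPPA, on chromosome 11 from 99041244 to 99054392 on the plus strand, was above all a gene of SGC-like cells, at 1051, 911, 701, and 629.8 CPM, with both CCI libraries below both sham libraries. It fell there by 0.61 on the log2 scale (SE 0.12, adjusted p = 0.0039, edgeR), the 1 call among the 4 genes tested in these cells. DESeq2 gave the same size and no call (adjusted p = 0.16), and leaving out the cells with immune markers gave -0.54 (adjusted p = 0.013). The summed SGC markers were also lower in CCI, at 127856, 128929, 100654, and 112747 CPM, and their part in the result was not tested.

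In neurons Igfbp4 was at 14.5, 17.6, 8.95, and 10.7 CPM and fell by 0.66 (SE 0.13, adjusted p = 0.0064). The 1364 neurons of 3 clusters in which at least 90% of cells held a UMI of the glial gene Fabp7 had 92.0, 82.4, 79.4, and 78.5 CPM of Igfbp4, and all other neurons 7.17, 9.24, 6.90, and 7.88 CPM. Those clusters held 341, 734, 112, and 177 neurons. Without them the difference was -0.11 (adjusted p = 0.54), and with only the neurons of low glial share it was -0.73 (adjusted p = 0.20). In Sprr1a- neurons the difference was -0.41 (SE 0.11, adjusted p = 0.046), below the fold limit. PEP5-like neurons (34.7, 42.6, 21.1, and 24.8 CPM) and PEP2-like neurons (34.3, 28.9, 21.3, and 18.1 CPM) had the highest levels among named neuronal classes and overlapped each other. Cluster 6, a PEP5-like cluster that is not among those rich in Fabp7, was at 108 to 128 CPM in sham and 26.0 to 30.8 CPM in CCI. In CCI, Sprr1a- PEP5-like neurons were at 34.3 and 41.1 CPM and Sprr1a+ PEP5-like neurons at 12.0 and 11.3 CPM. These differences were not tested. In Sprr1a- PEP2-like neurons Igfbp4 fell by 0.67 (SE 0.13, adjusted p = 0.00051), while Pappa rose in the same neurons. In the Col25a1 cluster Igfbp4 was at 33.6, 19.7, 14.1, and 9.11 CPM and sham and CCI did not overlap, and the Dcn and Tmc3 cluster had 35.0, 40.3, 31.5, and 32.5 CPM.

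Igfbp2, on chromosome 1 from 72824503 to 72852474 on the plus strand, was highest among named classes in cLTMR-like neurons (118, 109, 102, and 86.4 CPM) and PEP1-like neurons (95.5, 106, 70.7, and 71.7 CPM). The unnamed cluster 20 had a like level, at 91.2 to 123 CPM in sham and 63.1 to 78.0 CPM in CCI. Over all neurons Igfbp2 fell by 0.89 (35.7, 43.0, 19.0, and 22.1 CPM; SE 0.12, adjusted p = 0.0018, edgeR). In Sprr1a- neurons the difference was -0.48 (SE 0.12, adjusted p = 0.059, edgeR). Neurons that held no Sprr1a UMI were at 36.0, 43.8, 25.2, and 28.2 CPM. Sprr1a+ neurons were at 28.6, 22.1, 12.1, and 13.4 CPM and Sprr1a- neurons at 35.8, 43.7, 27.2, and 30.9 CPM. In Sprr1a- NP2-like neurons, a class with 11.6, 15.9, 8.20, and 10.2 CPM over all its cells, Igfbp2 fell by 0.61 (SE 0.18, adjusted p = 0.043), and it was not called in the other 7 classes tested. The NP2-like call was lost with DESeq2 (adjusted p = 0.072) and without the Female-Sham library (-0.35, adjusted p = 0.15), the Male-CCI library (0.30), or the Female-CCI library (0.12). SGC-like cells gave 5, 2, 0, and 0 UMIs.

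**Figure D4:**
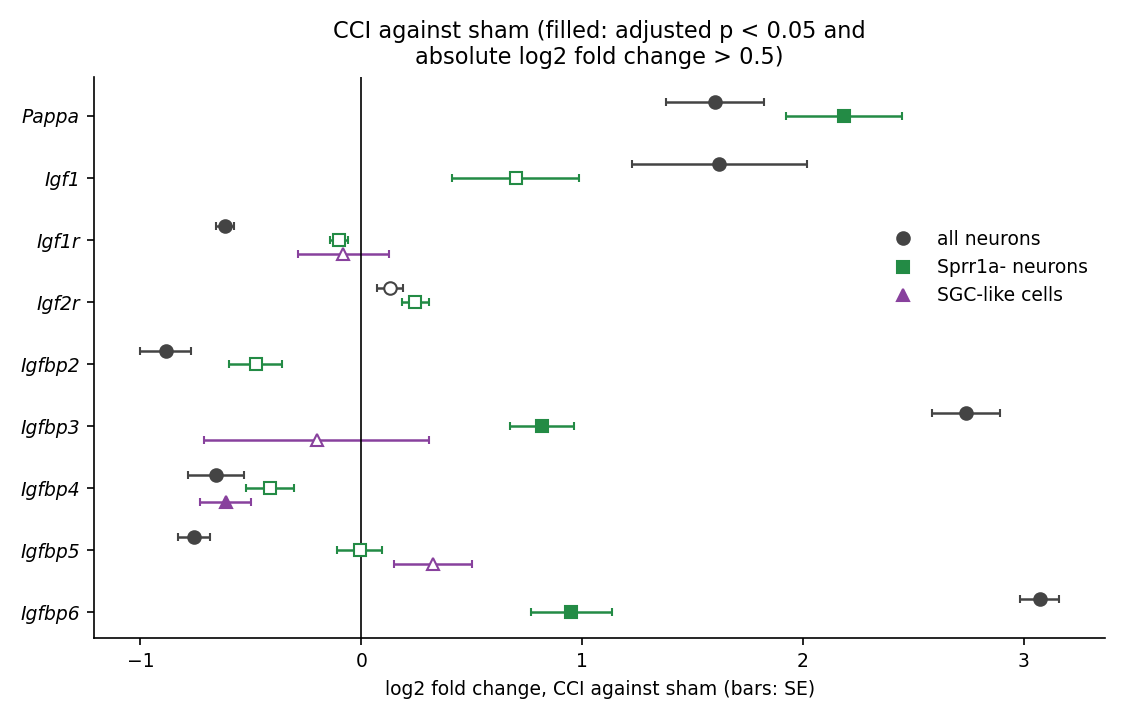
Log2 fold change (x axis, bars are SE, 2 CCI against 2 sham libraries) of each gene in all neurons, Sprr1a- neurons, and SGC-like cells, with filled symbols for called genes. For Igfbp3 and Igfbp6 the value in all neurons, 2.74 and 3.07, stands far to the right of that in Sprr1a- neurons, 0.82 and 0.95, and for Pappa the value in Sprr1a- neurons, 2.19, stands to the right of that in all neurons, 1.60.

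Over the 10 classes of Sprr1a- neurons, 66 of 90 pairs of a gene and a class could be tested and 8 were called, of which 4 were Pappa and the others Igf1, Igfbp2, Igfbp4, and Igfbp5, each in 1 class. The share of all genes called in these fits, higher or lower after CCI, was 3.97% in NP1-like neurons (2.33% higher and 1.64% lower), 4.47% in NP2-like (2.6% and 1.87%), and 2.56% in NP3-like neurons (1.47% and 1.09%). It was 3.8% in PEP1-like (2.42% higher and 1.37% lower), 4.52% in PEP2-like (2.61% and 1.91%), 3.74% in PEP3/4-like (2.27% and 1.46%), and 3.6% in PEP5-like neurons (2.17% and 1.43%). In NF1-like neurons it was 1.12% (0.635% higher and 0.484% lower), in NF2-like neurons 1.72% (1.23% and 0.489%), and in cLTMR-like neurons 1.72% (0.885% and 0.837%). Igf1r and Igf2r were tested in all 10 classes and called in none.

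The lists of other genes of the pathway held 42 genes, of which 38 were tested in all neurons, with 6 called higher and 4 lower. These 10 of 38 are close to the 27.8% of all genes called there (15.2% higher and 12.7% lower). The counts of single lists in all neurons stand beside the same shares. Of the other ligands, receptors, and adaptors, 2 of 8 tested rose and 2 fell. Irs2, an adaptor below the insulin and IGF1 receptors, rose by 2.04 (18.3, 19.0, 74.7, and 73.3 CPM; SE 0.04, adjusted p = 1.9e-06, edgeR), and Grb10, an adaptor that restrains these receptors, rose by 1.23 (15.7, 18.8, 38.5, and 39.3 CPM; SE 0.09). The related adaptor Grb14 fell by 0.67 (40.8, 40.9, 24.0, and 25.6 CPM; SE 0.05), and the orphan insulin receptor-related gene Insrr fell by 1.07 (3.60, 4.45, 1.64, and 2.04 CPM; SE 0.15). Both CCI libraries lay apart from both sham libraries in all 4 genes.

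Of the partner, inhibitors, and other proteases, 3 of 6 tested rose and none fell. Pappa2, the second pappalysin, rose by 2.88 (0.814, 0.882, 6.46, and 5.57 CPM; SE 0.12, adjusted p = 1.2e-05, edgeR), the lysosomal protease gene Ctsd by 0.70 (322, 323, 518, and 492 CPM; SE 0.05), and Stc2, an inhibitor of PAPPA, by 2.26 from a very low level (0.0493, 0.0475, 0.228, and 0.225 CPM; SE 0.30). Of the other binding proteins, 1 of 3 tested rose, Igfbp7 by 0.64 (0.493, 0.628, 0.849, and 0.845 CPM; SE 0.18). Of the 21 genes of the PI3K-AKT-mTOR-FOXO list, 19 were not called and 2 fell, Pik3r1, a regulatory subunit of PI3K, by 0.57 (197, 196, 127, and 129 CPM; SE 0.05) and Foxo4 by 0.52 (2.74, 2.94, 1.75, and 2.05 CPM; SE 0.12). In Sprr1a- neurons 36 were tested and 1 was called, Pappa2, which rose by 0.72 (0.626, 0.605, 1.07, and 0.997 CPM; SE 0.17, adjusted p = 0.031, edgeR). Of all genes tested there, 4.48% were called, 3.24% higher and 1.24% lower. In SGC-like cells 28 were tested and none was called by edgeR, where 2.45% of all genes were called (1.19% higher and 1.26% lower). DESeq2 called 0 as well, where 0.536% of all genes were called. The median log2 fold change of the lists together was -0.06 in all neurons, 0.05 in Sprr1a- neurons, and 0.14 in SGC-like cells, against -0.0061, -0.00086, and 0.0024 for all genes tested.

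**Figure D5:**
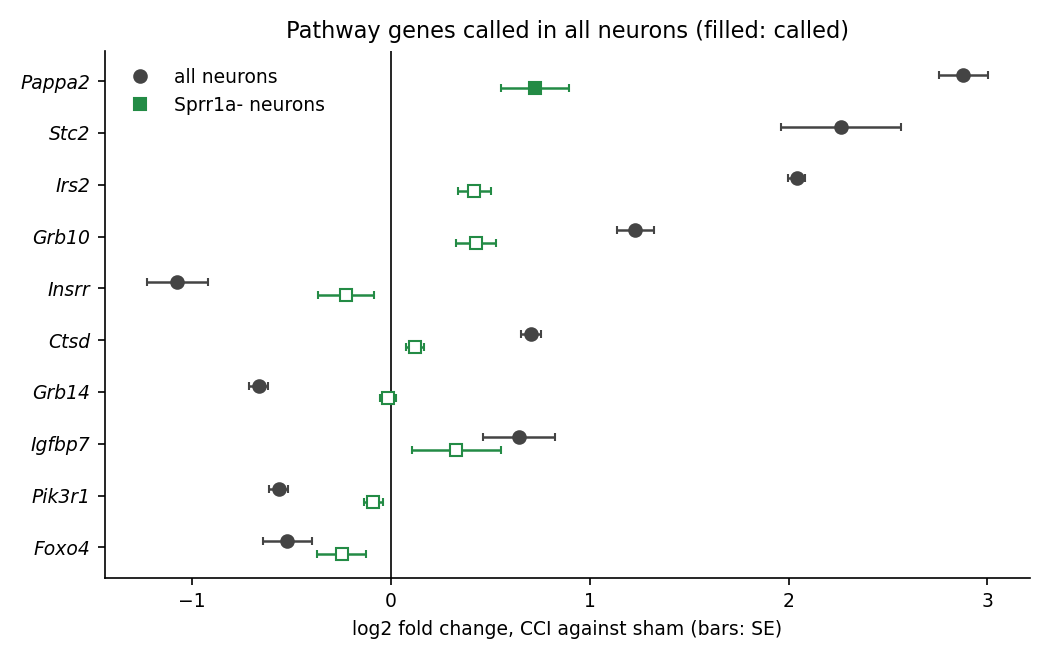
Log2 fold change (x axis, bars are SE) of the 10 pathway genes called in all neurons, in all neurons and in Sprr1a- neurons, with filled symbols for called genes. In Sprr1a- neurons all 10 lie nearer to 0 where they could be tested, and Pappa2 is the 1 called, at 0.72 against 2.88 in all neurons.

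Likeness of pattern was measured as Pearson's r of log2(CPM + 5) over 48 groups of 1 class in 1 library, or 44 without SGC-like cells, and is given as a description, since groups share libraries and classes. Igf1 was most like Spp1, the osteopontin gene (r = 0.96), Igfbp4 most like Acsbg1 (0.99), Igfbp5 most like Smim1 (0.96), and Igfbp3 most like Fgf3 (0.92), a marker used for CCI-ind-like neurons. Igf1r was most like Crebrf (0.88), Igf2r most like Abhd17c (0.87), Igfbp2 most like Gm8773 (0.80), and Igfbp6 most like Golga7 (0.80), or Flnc (0.96) without SGC-like cells. Pappa was most like Cdh13 (0.78), or Fbn1 (0.84) without SGC-like cells. Between the 9 genes, the highest values were 0.74 for Igfbp4 with Igfbp5 and 0.69 for Igfbp3 with Igfbp6, and the lowest was -0.74 for Igf1r with Igfbp3.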

How the data were processed

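GFP+ cells of L4-5 DRGs were measured by 10x 3' single-cell RNA-seq in 4 libraries, 1 of each sex after sham surgery and 1 of each sex after CCI. The deposited files hold raw UMI counts per gene and cell, which the authors made with Cell Ranger on mm10; the labels' processing notes name version 2.1.1 and the matrix header 3.0.2. Antisense and overlapping genes were left as counted.

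Cells with at least 1500 genes and at most 10% mitochondrial UMIs were kept. Scrublet (scanpy 1.11.5, expected rate 0.1) set no usable threshold, so its highest scores were removed in the number per library that the study's supplement gives. Clusters came from Seurat 5.3.0 (canonical correlation integration, 3000 variable genes, 20 components, resolution 0.8) without the 9 genes, and were named from at least 3 markers. The rule that a cluster is neuronal at 0.2 of the median cluster's Tubb3 level, and leaving 3 clusters unnamed, were chosen after seeing the data.

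UMIs were summed per library and tested with edgeR 4.0.16 (quasi-likelihood, all genes past its filter on low counts, Benjamini-Hochberg adjustment), with DESeq2 1.42.0 as an alternative. Each library is 1 sample, replicate 1 male and replicate 2 female. On simulated counts with known changes edgeR called 88.5% of the changed genes in the neuron comparison of 17233 genes, 85.5% in that of Sprr1a- neurons (16407 genes), and 64.5% in that of SGC-like cells (7643 genes). Of the unchanged genes it called 9, 9, and 28 in the same order. These shares hold for the changes that were simulated and need not hold for the differences reported here. A value of 0 UMIs allows up to 3 UMIs, and intervals cover counting error only. Contrasts between classes, and between Sprr1a+ and Sprr1a- neurons, were not tested, because the cells were sorted into these sets by the same counts.

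The genes and the pathway lists were chosen with earlier results of these data known. Named were the 9 genes, the 10 called pathway genes with the largest absolute log2 fold change in all neurons and the same sign in both sexes, and the genes most like each of the 9 by Pearson's r. Clusters named inside a class were chosen after their values were seen. Alternatives chosen after seeing the data were leaving out clusters with Fabp7 in 90% of cells, shared barcodes, or cells with immune markers, keeping the 9 genes in the clustering, and leaving out each library in the class and interaction fits.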

Additional observations from a re-analysis of the deposited data

Results flagged for a closer look

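SGC-like cells and neurons came from the same libraries, so their sums are not independent, and the p-values of this contrast are given as a description. The CCI effect in SGC-like cells minus that in all neurons was tested by the interaction term in edgeR with Benjamini-Hochberg adjustment, where 3.04% of 16657 genes were called, 0.732% higher and 2.31% lower. It was 1.01 for Igfbp5 and -3.11 for Igfbp3 on the log2 scale, and the latter call was lost without the Male-Sham library (-2.34). SGC-like cells held 34 Igfbp3 UMIs in sham and 22 in CCI. For Igfbp6 the adjusted p was 8.2e-05, but it rests on almost no glial data: SGC-like cells held 7, 46, 1, and 0 UMIs, the 46 of Female-Sham in 1.33% of 150 cells, and the gene did not pass the filter in SGC-like cells alone, so no size is given and nothing is drawn from it. Leaving out the Male-Sham library brought the 3 called of the 9 genes to 2. Of 37 pathway genes tested, 4 were called, at -1.85 for Irs2, -1.34 for Grb10, -0.52 for Ctsd, and 0.70 for Pik3r1. In SGC-like cells Irs2 was at 15.9, 21.1, 18.3, and 27.9 CPM, against 18.3, 19.0, 74.7, and 73.3 CPM in neurons, and sham and CCI overlapped in the former. None of these genes was called by edgeR in SGC-like cells themselves where it could be tested.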

How the results depend on the processing

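Of the values of the 9 genes under all alternatives, 337 kept their direction and their side of the threshold, 33 lost a call, 16 gained one, and 12 changed sign; the cause was not tested in any of them. Leaving out 1 library at a time gave 325 to 704 called genes in Sprr1a- neurons (735 with all) and 1 to 4 of the 9 genes (3 with all), 191 to 452 genes in SGC-like cells (187 with all) and 1 to 2 of the 9 (1 with all), and 172 to 651 genes for the difference of the CCI effect (506 with all). At most 5% mitochondrial UMIs left 1 of the 9 called in Sprr1a- neurons. In SGC-like cells DESeq2 called 41 genes (317 at an unadjusted p below 0.05) and 0 of the 9, no filter gave 384 genes, and keeping the 9 genes in the clustering gave 2 of them called. Summed over classes, DESeq2 called 1685 genes against 3742, and against 8 pairs of a gene and a class called, DESeq2 called 6, leaving out 1 library gave 10 to 12, and no filter gave 13.

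The labels give no replicate numbers, and with 2 libraries per surgery the sex was taken as the replicate block. Deviations of same-sex libraries from their surgery's mean correlated at 0.30 in neurons, 0.37 in Sprr1a- neurons, and 0.066 in SGC-like cells. With the replicate block 4939 genes were called in neurons, 1077 in Sprr1a- neurons, and 311 in SGC-like cells, and 14 pairs of a gene and a class.

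The sign changed in Sprr1a- neurons for Igfbp5 (-0.15 to 0.12 without 1 library, 0.053 without shared barcodes, 0.50 without neurons holding a Sprr1a UMI), for Igf1r (0.022) and Igfbp4 (0.066) under the last of these, and for Igf1 at most 5% mitochondrial UMIs (-0.085). Without 1 library it also changed for Igfbp3 in SGC-like cells (-1.28 to 0.50) and, in the difference of the CCI effect, for Igfbp4 (-0.15 to 0.21) and Igf2r (-0.34 to 0.43).

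The mean log2 ratio of Sprr1a+ to Sprr1a- neurons in CCI moved when any Sprr1a UMI was set against none, to 0.010 for Pappa (-1.95 at the limit of 1), 0.72 for Igf1, -0.96 for Igf1r, -0.45 for Igfbp2, -1.08 for Igfbp4, -1.87 for Igfbp5, and 3.10 for Igfbp6. With a limit of 2 it was -1.15 for Igfbp2, 2.90 for Igfbp3, and 3.02 for Igfbp6. From thinned shares it was 1.66 for Igf1, -1.41 for Igf1r, -0.93 for Igfbp2, and -1.06 for Igfbp4.

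With 2 libraries per surgery, SGC-like cells had 112 to 190 cells per library at a median of 4188.5 to 5175 UMIs, and 4 of the 9 genes passed the filter on low counts there.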

Other observations

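Igfbp6 in SGC-like cells was at 7, 46, 1, and 0 UMIs in the 4 libraries, and in Female-Sham only 1.33% of the 150 cells held one. Of the unnamed clusters, the one led by Calb1 (cluster 21) had 71.9, 71.2, 79.2, and 64.8 CPM of Igfbp5 and 2.15, 8.47, 11.3, and 15.4 CPM of Igf1. The unnamed cluster 20, one of those rich in Fabp7, had 4.13, 2.23, 23.1, and 42.6 CPM of Pappa from 21, 16, 15, and 53 UMIs.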
